A study of Homo sapiens with 30 samples.

Results

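The transfer of HEAA cells from serum-containing medium to sphere medium was followed by RNA sequencing. HEAA cells derive from UMUC1, a human line grown from bladder cancer whose UTX carries a loss-of-function mutation, and stably carry the vector pSIN-puro with a UTX bearing the changes H1146A and E1148A. These members were the 3 libraries of HEAA cells in sphere medium and the 3 of HEAA cells in full medium, 6 of the 18 libraries of the first experiment and of the 30 samples of the series. Full medium was Eagle's minimum essential medium (MEM) with 10% fetal bovine serum. Sphere medium was MEM without serum, with the supplement B27 lacking vitamin A, and with 20 ng/ml each of FGF2 and EGF. All cells were kept in full medium, plated in either medium and harvested on day 3. Cells with the empty vector (EV) and cells with wild type UTX, grown and harvested alongside in both media, served to show where HEAA cells differed. EV, UTX and HEAA cells are each 1 line of the same UTX-mutant parent, and serum, B27, FGF2 and EGF changed at the same time, so their effects cannot be told apart. The labels do not say whether cells in sphere medium were attached, so an effect of attachment cannot be told apart from these either. The labels number replicates 1 to 3 without saying whether they were separate cultures, so p-values here speak only for how far these libraries scatter, which may be technical scatter.

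UTX, encoded by KDM6A, removes methyl groups from lysine 27 of histone H3 and is also a subunit of the KMT2C and KMT2D enhancer complexes. H1146A and E1148A alter the pocket that holds the iron of its catalytic site. Bladder epithelium has basal cells, which carry KRT5 and TP63, and umbrella cells, which carry uroplakins. Squamous epithelium such as skin ends its life differently: small proline-rich proteins and other precursors are joined by transglutaminases into a cornified envelope, surrounded by special lipids and held by desmosomes. FGF2 and EGF act through receptor tyrosine kinases and the MAPK cascade, whose negative feedback genes SPRY and DUSP serve as a record of pathway output. Serum carries lysophospholipids and TGF-beta, which act on the YAP, SRF and SMAD transcription factors, and it carries lipoproteins, which hold down the cell's own cholesterol synthesis.

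Genes are named by the rule given with the processing steps, and familiar members of a list named beyond it were chosen after their values were seen. Levels are counts per 1000000 (CPM) scaled with TMM factors, given per library or as mean ± SD (n = 3). Every log2 fold change is sphere minus full medium, ± SE, from edgeR's quasi-likelihood test, and a gene was called to rise or fall when its Benjamini-Hochberg adjusted p was under 0.05. Total counts per library were 25623028 to 30029477 in full medium and 24250265 to 40111234 in sphere medium. KDM6A, which the vector carries, was at 692, 687 and 702 CPM in full medium and 926, 957 and 946 CPM in sphere medium, and at 17.4 ± 0.745 and 8.18 ± 0.784 CPM in EV cells. In HEAA cells KDM6A was higher in sphere medium (log2 fold change 0.44 ± 0.04, edgeR adjusted p = 5.18e-10), and counts do not separate vector RNA from that of the cells' own gene. The epithelial genes EPCAM and CDH1 were at 160.1 to 178 CPM and 724 to 636 CPM from full to sphere medium. Of 13 leukocyte and endothelial markers 9 did not pass the count filter, PTPRC, CD3E, CDH5 and KDR among them. Of the other 4, CD14 (0.299 to 2.61 CPM), CD68 (6.11 to 12.8 CPM) and VWF (0.591 to 1.06 CPM) rose and PECAM1 (2.16 to 2.36 CPM) did not pass the test. Of 11 fibroblast markers 7 passed the filter, 3 of them only through full-medium libraries, and their only members above 1 CPM in either medium were LUM (33 to 0.373 CPM), which fell, and COL1A1 (7.41 to 15 CPM), which rose. Summed over the markers that passed the filter, fibroblast genes came to 41.0 to 45.3 CPM in full and 14.9 to 16.9 CPM in sphere medium, and leukocyte and endothelial genes to at most 9.33 and 19.5 CPM. DPT, TYROBP and KDR had 0 counts in the 6 libraries. Their part in the results was not tested. In RNA from whole cultures, fewer cells of a type and less RNA per cell cannot be told apart.

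Among 19629 genes tested, 6754 (34.4%) rose and 7135 (36.3%) fell in sphere medium, or 70.8% in all. By at least 2-fold, 1616 (8.23%) rose and 3160 (16.1%) fell. The 3 libraries of one medium lay wholly above the 3 of the other for 14461 genes (73.7%). The median log2 fold change over all genes was -0.07, with quartiles at -0.71 and 0.41. These are the shares against which each gene list below is to be read. Some members passed the count filter only through the libraries of one medium, in HEAA, EV or UTX cells. The filter favoured a difference for them, so their calls are a description. Lists for which no number of such members is given had at most 2 of them in either medium. With library totals alone in place of TMM factors, the median of all genes moved by -0.13 on the log2 scale, and 39.1% instead of 48.6% of the called genes were rises.

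The largest rises were in genes that were silent or nearly so in full medium. TGM3 (ENSG00000125780.11), the transglutaminase that crosslinks envelope precursors in hair and epidermis, had 0 counts in all 3 full-medium libraries and 39.7, 36.5 and 34.6 CPM in sphere medium. Its rise was at least 1080.0-fold, computed against a floor of 3 counts over the group (edgeR adjusted p = 6.12e-18). SPRR2D (ENSG00000163216.6), a small proline-rich envelope precursor, was at 0, 0.037 and 0.032 CPM in full medium and 136, 139 and 144 CPM in sphere medium, or 2 against 12951 counts. The ratio was 6073-fold (95% counting interval 1681 to 50160.0), an interval that like the floor covers counting error only (edgeR adjusted p = 1.81e-25). Both genes were near 0 in every full-medium library and above 30 CPM in every sphere library.

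**Figure D1:**
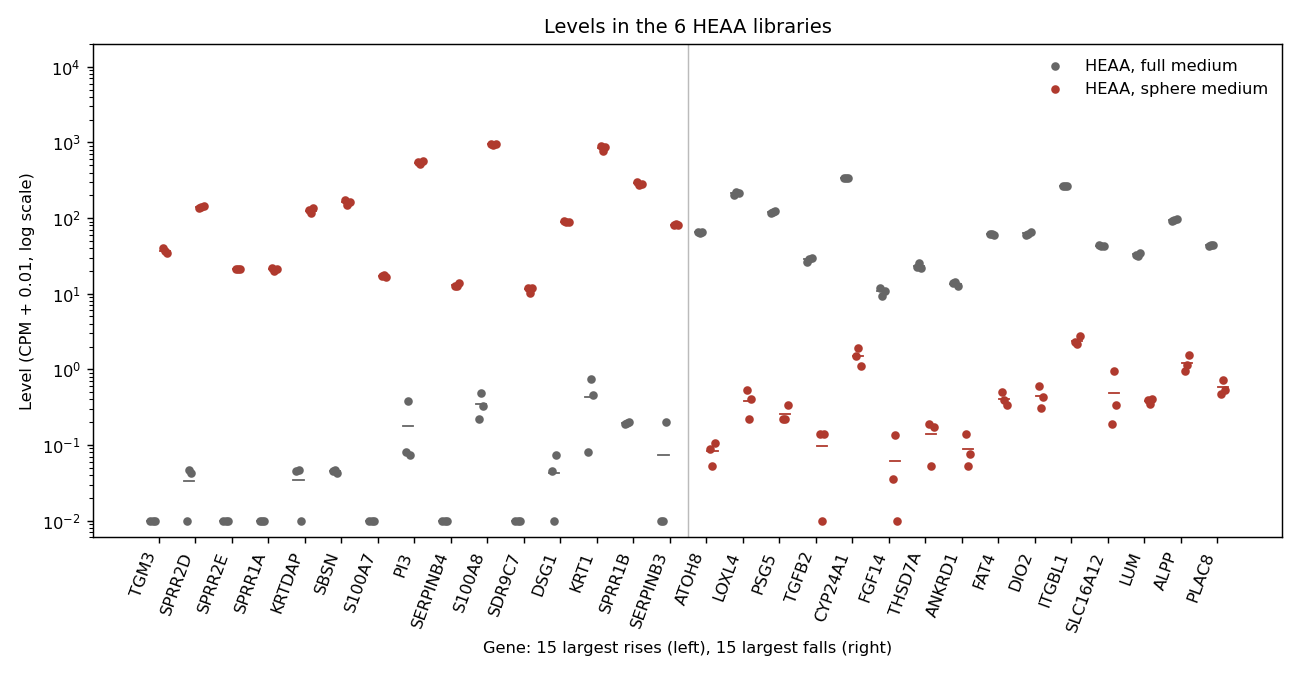
Levels of the 15 genes with the largest rises and the 15 with the largest falls in HEAA cells, as CPM + 0.01 on a log scale. Each point is 1 library, grey for full and red for sphere medium, and dashes are means of 3. For all 30 genes the libraries of the 2 media do not overlap, which the choice of genes required.

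The other 13 of the 15 largest rises were the envelope precursors SPRR2E, SPRR1A and SPRR1B, the keratinocyte secreted proteins KRTDAP and SBSN, the elastase inhibitor PI3, the antimicrobial calcium-binding proteins S100A7 and S100A8, the serpins SERPINB3 and SERPINB4, the ceramide-processing dehydrogenase SDR9C7, the desmoglein DSG1 and the keratin KRT1. KRT1, the keratin of cells that have left the basal layer of skin, was at 0.071, 0.732 and 0.445 CPM in full medium and 906, 769 and 881 CPM in sphere medium. DSG1, the desmosomal cadherin of upper epidermis, had 3 counts over the full-medium libraries and stood at 90.9, 87.7 and 89.1 CPM in sphere medium, a ratio of 2598-fold (95% counting interval 889 to 12600.0). SBSN, suprabasin, went from 0.0346 ± 0.0025 CPM to 162 ± 12.1 CPM, a ratio of 4754-fold (95% counting interval 1626 to 23050.0). Every one of these genes was low in all full-medium libraries and high in all sphere libraries. Choosing the largest rises favoured this, and the choice required libraries without overlap.

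All 10 SPRR genes tested rose, each by more than 2-fold. Of these 10, 7 passed the count filter only through sphere libraries, which favoured a difference and makes the count a description. SPRR3, an envelope precursor of mouth and oesophagus, was at 0.282, 0.549 and 0.763 CPM in full medium and 600.3, 592 and 589.6 CPM in sphere medium. SPRR1B was at 0.177, 0.183 and 0.191 CPM in full medium and 303, 276 and 285 CPM in sphere medium. SPRR2A went from 0.101 ± 0.0623 CPM to 53.2 ± 1.2 CPM, and SPRR2G, SPRR4 and SPRR2B, all at 0 counts in full medium, reached 1.75, 1.45 and 0.694 CPM. The median log2 fold change was 9.52, or 9.11 with the 5 genes at 0 set to their bounds. The SPRR2 genes are near-identical copies, so how Salmon divided reads among them is uncertain and their sum is firmer than any single member.

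TGANTCA was searched on both strands in the 250 bases before each start in RefSeq's table for GRCh38.p14. The first window was taken where a gene has several. TGANTCA takes in TGACTCA and TGAGTCA, the letters that AP-1, the FOS and JUN transcription factor, binds, and also TGAATCA and TGATTCA. It occurred in 6.60% of 27305 genes with a window, in 6 of 8 SPRR genes, in 10 of 16 genes of the cornified envelope list and in 3 of 13 S100 genes with one. The matches of SPRR2G, FLG, FLG2, TCHH and RPTN, and the second of SPRR1B, were TGAATCA or TGATTCA. A match is a description of letters and no evidence that a factor binds. The windows of SPRR1A (chr1:152983831-152984080, plus strand), SPRR1B (chr1:153030953-153031202, plus strand), SPRR3 (chr1:153001499-153001748, plus strand) and SBSN (chr19:35528312-35528561, minus strand) are shown as examples that hold the letters, from genes that rose from under 1 CPM in every full-medium library to above 20 CPM in every sphere library. S100A8 rose in the same way and its window has 0 matches. The 4 windows are written 5′ to 3′ on the gene's strand, with TGANTCA in capitals.
SPRR1A: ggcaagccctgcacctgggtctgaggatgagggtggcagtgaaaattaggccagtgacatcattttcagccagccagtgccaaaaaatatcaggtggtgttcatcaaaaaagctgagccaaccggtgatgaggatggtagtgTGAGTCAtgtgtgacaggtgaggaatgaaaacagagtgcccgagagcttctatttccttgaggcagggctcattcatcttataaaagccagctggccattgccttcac
SPRR1B: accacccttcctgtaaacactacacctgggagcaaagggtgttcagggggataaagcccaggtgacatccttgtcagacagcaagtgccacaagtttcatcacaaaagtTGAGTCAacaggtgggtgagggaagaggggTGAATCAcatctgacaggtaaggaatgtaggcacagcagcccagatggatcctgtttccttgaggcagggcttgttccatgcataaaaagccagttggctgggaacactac
SPRR3: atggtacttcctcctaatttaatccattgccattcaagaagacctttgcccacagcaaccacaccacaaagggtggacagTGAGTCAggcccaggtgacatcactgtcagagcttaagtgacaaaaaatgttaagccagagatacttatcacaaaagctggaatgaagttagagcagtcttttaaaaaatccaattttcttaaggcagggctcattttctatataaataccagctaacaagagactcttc
SBSN: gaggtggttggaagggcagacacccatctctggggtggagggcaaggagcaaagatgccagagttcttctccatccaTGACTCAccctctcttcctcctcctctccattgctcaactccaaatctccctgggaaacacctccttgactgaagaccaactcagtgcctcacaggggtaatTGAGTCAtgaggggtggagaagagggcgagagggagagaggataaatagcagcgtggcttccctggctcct

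Beyond TGM3, the transglutaminases TGM1 and TGM5 rose. TGM1, the membrane-bound enzyme that starts the envelope, was at 2.22, 2.42 and 2.45 CPM in full medium and 19.5, 16.9 and 20.8 CPM in sphere medium (log2 fold change 3.01 ± 0.11, edgeR adjusted p = 1.90e-16). TGM5, an enzyme of upper epidermis, was at 1.66, 1.21 and 1.59 CPM in full medium and 5.45, 5.22 and 5.75 CPM in sphere medium (1.88 ± 0.21). TGM2, the widely expressed tissue transglutaminase, was at 297, 290.3 and 292 CPM in full medium and 267, 259 and 263 CPM in sphere medium and did not pass the test, though it was called lower with library totals alone. TGM4, TGM6, TGM7 and the clotting factor subunit F13A1 did not pass the count filter. For TGM2 the 3 sphere libraries lay below the 3 full-medium libraries by a margin that edgeR's test did not pass, and the other 3 enzymes were higher in every sphere library.

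Of 25 cornified envelope and keratinocyte surface genes 21 passed the filter, 10 of them only through sphere libraries, and 19 rose and 1 fell (median 4.15). FLG, which makes filaggrin, the protein that bundles keratin, went from 0.242 ± 0.044 CPM to 29.3 ± 2.18 CPM (log2 fold change 6.90 ± 0.28). IVL, which makes involucrin, the first scaffold of the envelope, was already well expressed in full medium and went from 92.6 ± 1.49 CPM to 240.1 ± 8.71 CPM (1.38 ± 0.06). CSTA, a cysteine protease inhibitor, went from 76.5 ± 3.41 CPM to 607 ± 29.3 CPM, and the secreted dermokine DMKN went from 58.9 ± 3.42 CPM to 274 ± 11.2 CPM. The plakins EVPL and PPL, which tie the envelope to keratin, rose less, from 274 to 479 CPM and from 282 to 409 CPM. LOR, the most abundant envelope protein of skin, remained under 1 CPM at 0.0468 to 0.31 CPM, and CASP14, the protease of terminal keratinocytes, at 0.189 to 0.836 CPM. SCEL, sciellin, fell (117 to 100.1 CPM, -0.22 ± 0.04), and TCHH did not pass the test at 2.46 to 2.34 CPM. CRNN, LCE1C, LCE2B and KPRP stayed under the filter. The list's rise thus ran from precursors absent in full medium to plakins that changed by less than 2-fold, and loricrin RNA remained scarce.

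Skin lipids are made from ceramides with very long acyl chains, and 16 of 19 barrier lipid genes rose and 2 fell. CERS3, the ceramide synthase for very long chains, was at 1.76, 1.65 and 1.75 CPM in full medium and 99.3, 103 and 107 CPM in sphere medium (log2 fold change 5.90 ± 0.08, edgeR adjusted p = 7.04e-24). ABCA12, which loads lipid into lamellar granules, was at 13.1, 14.3 and 13.8 CPM in full medium and 200.3, 195 and 203 CPM in sphere medium (3.86 ± 0.07). CYP4F22, which hydroxylates the acyl chain, had 1 count in full medium and was at 13.7, 13.5 and 14.1 CPM in sphere medium. SDR9C7 was at 0 in full medium and at 11.7, 10.4 and 12 CPM in sphere medium. The lipoxygenase ALOXE3 went from 3.21 ± 0.364 CPM to 8.89 ± 0.491 CPM, and the lipases LIPK, LIPM and LIPN reached 14.5, 4.65 and 7.36 CPM. UGCG, which makes glucosylceramide, fell (-0.74 ± 0.04) and the sphingomyelinase SMPD1 did not pass the test. Of the 19, 7 passed the filter only through sphere libraries. The synthase CERS3 and the transporter ABCA12 were thus higher and UGCG was lower.

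Kallikreins, serine proteases that release surface cells, moved in both directions: of 11 proteases and inhibitors tested 6 rose and 2 fell, and 5 of the 11 passed the filter only through sphere libraries. KLK11 went from 1.74 ± 0.398 CPM to 19.1 ± 0.425 CPM (log2 fold change 3.45 ± 0.11), KLK12 reached 17.8 CPM from 2 counts, and the inhibitor SPINK5 was at 2.12, 2.85 and 2.58 CPM in full medium and 42.3, 43.9 and 38.6 CPM in sphere medium. KLK6 fell from 102 ± 3.83 CPM to 15.2 ± 0.259 CPM (-2.75 ± 0.06), and KLK5, a main desquamation protease of skin, was at 0.904 to 0.68 CPM without passing the test. KLK7, KLK14 and SPINK6 did not pass the filter. So the inhibitor SPINK5 rose while the skin's KLK5 and KLK7 were scarce in both media.

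Many of the rising genes are neighbours on chromosome 1. By RefSeq, 63 protein-coding genes lie between the outer ends of S100A10 and S100A13, with S100A1 inside the span of S100A13, through the SPRR, LCE and FLG genes, a stretch picked after its values were seen. Of these, 38 were matched by RefSeq's symbol and passed the filter (15 of them only through sphere libraries), 36 rose, 33 of them by at least 2-fold, and 0 fell. LOR, named LORICRIN by RefSeq, was not matched and is left out of these counts, although it passed the filter and rose. TCHH and S100A1 were the 2 that did not pass the test. Within the stretch the peptidoglycan-binding proteins PGLYRP3 and PGLYRP4 went from 0.179 ± 0.0941 CPM to 24.3 ± 0.789 CPM and from 1.25 ± 0.167 CPM to 45.1 ± 0.315 CPM. The stretch thus holds both genes switched on from near 0, such as SPRR1A, and abundant genes with small changes, such as S100A10 (log2 fold change 0.41 ± 0.05).

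S100 proteins bind calcium, and S100A8 with S100A9 form calprotectin, an antimicrobial complex of inflamed epithelium. Of 13 tested, 12 rose and 0 fell (median 1.53), and with library totals alone S100P was called lower. S100A9 was at 19.6, 20.2 and 19.6 CPM in full medium and 3049, 2987 and 3097 CPM in sphere medium (log2 fold change 7.27 ± 0.06, edgeR adjusted p = 6.11e-27). S100A8 was at 0.212, 0.476 and 0.318 CPM in full medium and 961, 912 and 951 CPM in sphere medium (11.45 ± 0.12). S100A7, psoriasin, was at 0 counts in full medium and at 17, 17.8 and 16.8 CPM in sphere medium, at least 497-fold. The abundant S100A2, S100A11 and S100A6 rose more modestly, from 305 to 987 CPM, 535 to 1520.2 CPM and 657 to 1394 CPM. S100P was at 177 to 167 CPM and S100A7A, a near-identical copy of S100A7, did not pass the filter. The calprotectin pair, psoriasin and S100A12 (0.0452 to 9.05 CPM) thus rose by more than the other 8 that rose.

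Clade B serpins are intracellular protease inhibitors, several of them squamous antigens. Of 12 tested 10 rose and 1 fell. SERPINB3 was at 0, 0 and 0.191 CPM in full medium and 81.2, 83.5 and 81.1 CPM in sphere medium, and its near-identical copy SERPINB4 at 0 in full medium and 12.6, 12.6 and 13.8 CPM in sphere medium. SERPINB13, headpin of stratified epithelium, was at 10.6, 11.9 and 11.8 CPM in full medium and 117, 125 and 119.9 CPM in sphere medium (log2 fold change 3.40 ± 0.07). SERPINB1, an inhibitor of neutrophil elastase, went from 28 ± 1.19 CPM to 145 ± 1.49 CPM, SERPINB5, maspin, went from 148 ± 6.19 CPM to 325 ± 5.92 CPM and SERPINB2, which inhibits urokinase, went from 75 ± 5.66 CPM to 189 ± 13.1 CPM. SERPINB6 fell (-0.29 ± 0.05) and SERPINB7 was at 45.6 to 44 CPM without passing the test, and was called lower with library totals alone.

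Keratins moved in both directions. Of 26 tested, 21 rose and 5 fell (median 4.52), and the 5 that fell were KRT7, KRT8, KRT18, KRT80 and KRT81. KRT5, the basal keratin, was at 463, 461 and 512 CPM in full medium and 6221, 5887 and 5886 CPM in sphere medium (log2 fold change 3.65 ± 0.05), and its partner KRT14 at 13.1, 13.5 and 14.3 CPM in full medium and 643, 584 and 613 CPM in sphere medium (5.49 ± 0.06). KRT6A, a keratin of activated epithelium, was at 208, 202 and 224 CPM in full medium and 7862, 7375 and 7501 CPM in sphere medium (5.17 ± 0.05), and KRT16 went from 3.06 ± 0.483 CPM to 392 ± 27.9 CPM. KRT10, the suprabasal partner of KRT1, was at 29.7, 31 and 30.7 CPM in full medium and 1124, 964 and 1082 CPM in sphere medium (5.12 ± 0.08). KRT13, of non-cornifying stratified epithelium, rose from 1401 to 2513 CPM and KRT4 from 0.922 to 9.65 CPM. Among simple-epithelium keratins KRT7 was at 50.6, 51 and 52.1 CPM in full medium and 0.96, 0.977 and 1.01 CPM in sphere medium (-5.70 ± 0.09), and KRT8 fell from 1498 to 838 CPM and KRT18 from 894 to 756 CPM. KRT19, of the same class, rose from 873 to 2120.2 CPM, and KRT20, of umbrella cells, from 2 counts to 0.56 CPM. KRT80 fell from 716 ± 10.6 CPM to 24.3 ± 0.281 CPM (-4.88 ± 0.04). KRT6A, KRT6B and KRT6C, and KRT14, KRT16 and KRT17, are near-identical in part, so the split of reads within each trio is uncertain. KRT5, KRT14, KRT10, KRT6A and KRT16 thus rose, as did KRT19 and KRT20 of simple epithelium and umbrella cells. KRT8 and KRT18 fell by less than 2-fold, and KRT7, KRT80 and KRT81 fell by more than 4 log2 units.

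Of 20 transcription factors of stratified epithelium 17 rose and 3 fell. ZNF750, which drives late epidermal genes, was at 1.7, 1.65 and 1.3 CPM in full medium and 58.7, 55.5 and 55 CPM in sphere medium (log2 fold change 5.19 ± 0.10, edgeR adjusted p = 3.29e-21). GRHL1 and GRHL3, factors of desmosome and barrier genes, went from 20.5 ± 0.469 CPM to 159 ± 2.85 CPM and from 7.2 ± 0.196 CPM to 35.5 ± 0.463 CPM, while their relative GRHL2 fell from 266 ± 4.37 CPM to 122 ± 1.31 CPM (-1.12 ± 0.03). TP63, the basal master factor, was at 112, 102 and 110.2 CPM in full medium and 279.9, 284 and 279.5 CPM in sphere medium (1.38 ± 0.04). KLF4, a barrier factor, went from 23.8 ± 0.746 CPM to 78.3 ± 2.93 CPM, KLF5 went from 92.5 ± 1.97 CPM to 338 ± 8.4 CPM and SOX15 went from 10.2 ± 0.423 CPM to 66 ± 5.28 CPM. The other falls were OVOL2 (-0.29 ± 0.09) and BNC2 (-1.90 ± 0.29). TP63 of the basal layer and ZNF750 of late layers were thus both higher in sphere medium.

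Desmosomes fasten keratin between cells, and 11 of 12 of their genes tested rose. DSG3, the basal desmoglein, was at 0.106, 0.037 and 0.223 CPM in full medium and 62.1, 60.8 and 65.6 CPM in sphere medium (log2 fold change 8.91 ± 0.13). PKP1, plakophilin of suprabasal cells, was at 13.5, 12.2 and 14.3 CPM in full medium and 354, 332 and 343 CPM in sphere medium (4.68 ± 0.06), and DSC2 at 10.8, 11.3 and 11.8 CPM in full medium and 213, 219 and 217 CPM in sphere medium (4.26 ± 0.06). DSP, the plakin common to all desmosomes, went from 503 ± 11.9 CPM to 2631 ± 30.3 CPM, JUP went from 721 ± 9.06 CPM to 1731 ± 108 CPM and DSC3 went from 47 ± 0.72 CPM to 459.9 ± 9.1 CPM. DSG2, the desmoglein of simple epithelium, rose by less than 2-fold (0.24 ± 0.04), and PKP2, a plakophilin of simple epithelium too, fell (-0.21 ± 0.04). The connexins of stratified epithelium rose too: of 11 gap junction and pannexin genes 7 rose and 3 fell, with GJB2 from 390.0 ± 17.8 CPM to 2720.0 ± 48.6 CPM, GJB6 from 184 ± 4.7 CPM to 835 ± 6.7 CPM and the vascular connexin GJA5 falling from 55.5 ± 2.36 CPM to 4.79 ± 0.514 CPM. Tight junction genes moved little, with 9 of 18 higher and 6 lower and a median of 0.17. Of these CLDN1 went from 528 ± 11.1 CPM to 471 ± 13.3 CPM, and CLDN3 fell from 1.53 ± 0.359 CPM to 0.406 ± 0.128 CPM.

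Luminal genes of bladder epithelium went the other way. Of 25 tested, 5 rose and 19 fell (median -1.20), and 2 of the 5 rises, GRHL3 and KLF5, stand in the stratified list as well. The other rises were SNX31 (0.75 ± 0.25), TRIM24 (0.45 ± 0.04) and ERBB3 (0.14 ± 0.04), each by less than 2-fold, and ERBB3 was not called with library totals alone. UPK1B, a uroplakin, was at 651, 678 and 676 CPM in full medium and 289, 293 and 293 CPM in sphere medium (log2 fold change -1.20 ± 0.04, edgeR adjusted p = 1.15e-17). UPK2 was at 21.2, 23.5 and 20.8 CPM in full medium and 5.45, 5.52 and 4.87 CPM in sphere medium (-2.05 ± 0.08) and UPK3B went from 424 ± 8.79 CPM to 198 ± 16.7 CPM. FABP4, a fatty acid carrier induced by PPARG in urothelium, was at 336, 312 and 334 CPM in full medium and 14.2, 13.1 and 14.9 CPM in sphere medium (-4.53 ± 0.06). The luminal transcription factors ELF3, FOXA1 and GATA3 fell from 91.7 ± 1.59 CPM to 10.8 ± 0.568 CPM, from 21.9 ± 0.437 CPM to 9.4 ± 0.28 CPM and from 60.8 ± 2.38 CPM to 29.3 ± 1.03 CPM. PPARG itself fell by less than 2-fold (-0.20 ± 0.04). PSCA, a surface antigen of umbrella cells, went from 61.8 ± 1.76 CPM to 11.2 ± 0.642 CPM. MUC4 went from 14 ± 1.41 CPM to 0.719 ± 0.261 CPM and MUC20 from 45.9 ± 0.672 CPM to 3.11 ± 0.161 CPM, and of 15 membrane mucin and glycosyltransferase genes 4 rose and 9 fell. The 4 rises were the mucin MUC15 (2.17 ± 0.10), the surface glycoprotein CD24 (2.04 ± 0.05), the sialyltransferase ST6GALNAC1 (2.49 ± 0.07) and B3GNT3 (0.20 ± 0.04), of which B3GNT3 was not called with library totals alone. The uroplakins, ELF3, FOXA1, GATA3, MUC4 and MUC20 thus fell, while other mucin and glycosyltransferase genes rose.

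**Figure D2:**
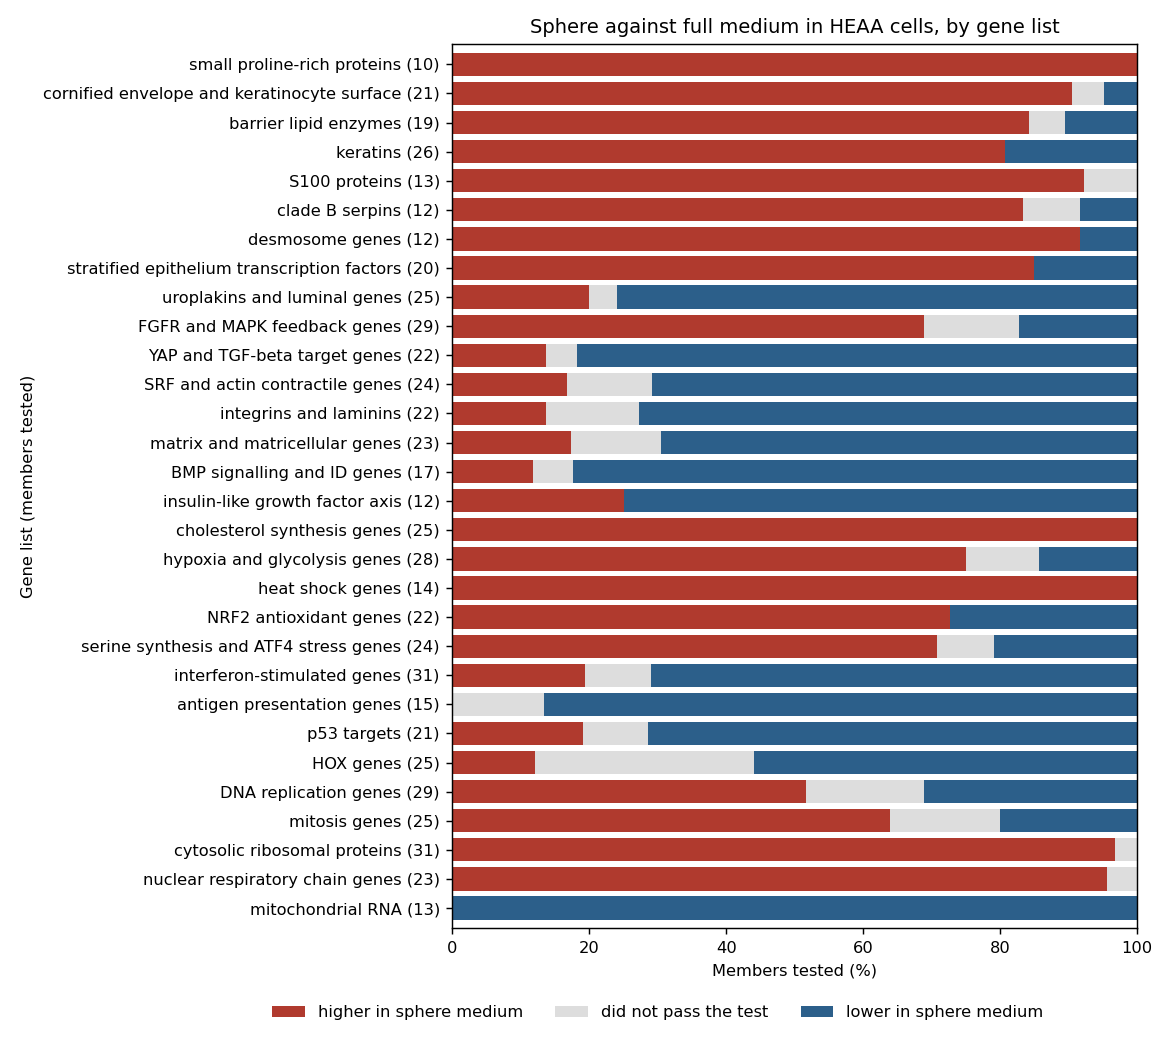
Share of the tested members of 30 gene lists that rose (red), fell (blue) or did not pass the test (grey) in sphere medium, with the number of members tested in brackets. Over all genes 34.4% rose and 36.3% fell. Cholesterol synthesis, heat shock and small proline-rich genes are wholly red, and mitochondrial RNA is wholly blue.

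Most feedback genes of FGF receptor and MAPK signalling were higher. Of 29 tested, 20 rose and 5 fell, with a median of 1.08. SPRY4, a Sprouty inhibitor of RAS signalling, was at 0.847, 1.24 and 1.11 CPM in full medium and 61, 61.9 and 65.2 CPM in sphere medium (log2 fold change 5.87 ± 0.08, edgeR adjusted p = 9.15e-24). DUSP6, the phosphatase that inactivates ERK, was at 10.7, 12.1 and 11.7 CPM in full medium and 446, 437 and 419.8 CPM in sphere medium (5.24 ± 0.05). The ETS factors ETV4 and ETV5 went from 4.76 ± 0.525 CPM to 74.6 ± 4.53 CPM and from 1.99 ± 0.235 CPM to 14.6 ± 0.58 CPM. DUSP4 went from 19.7 ± 0.692 CPM to 93.8 ± 4.14 CPM, SPRY2 from 2.92 ± 0.102 CPM to 10.5 ± 0.643 CPM and PHLDA1 from 212 ± 3.15 CPM to 718 ± 15.7 CPM, whereas SPRED3 and DUSP2, both under 1 CPM, did not pass the test. FOSL1, a late ERK target, was at 55, 54 and 55.9 CPM in full medium and 55.8, 54.4 and 55.5 CPM in sphere medium, with overlapping libraries. The falls were CCND1 (from 483 ± 17.8 CPM to 359 ± 2.26 CPM), EPHA2 (from 301 ± 12.1 CPM to 124 ± 7.4 CPM), EMP1, DUSP1 and the cytokine LIF (from 33.8 ± 1.2 CPM to 11 ± 0.413 CPM). The plot of members by fold change shows SPRY4, DUSP6 and ETV4 well apart from the rest.

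**Figure D3:**
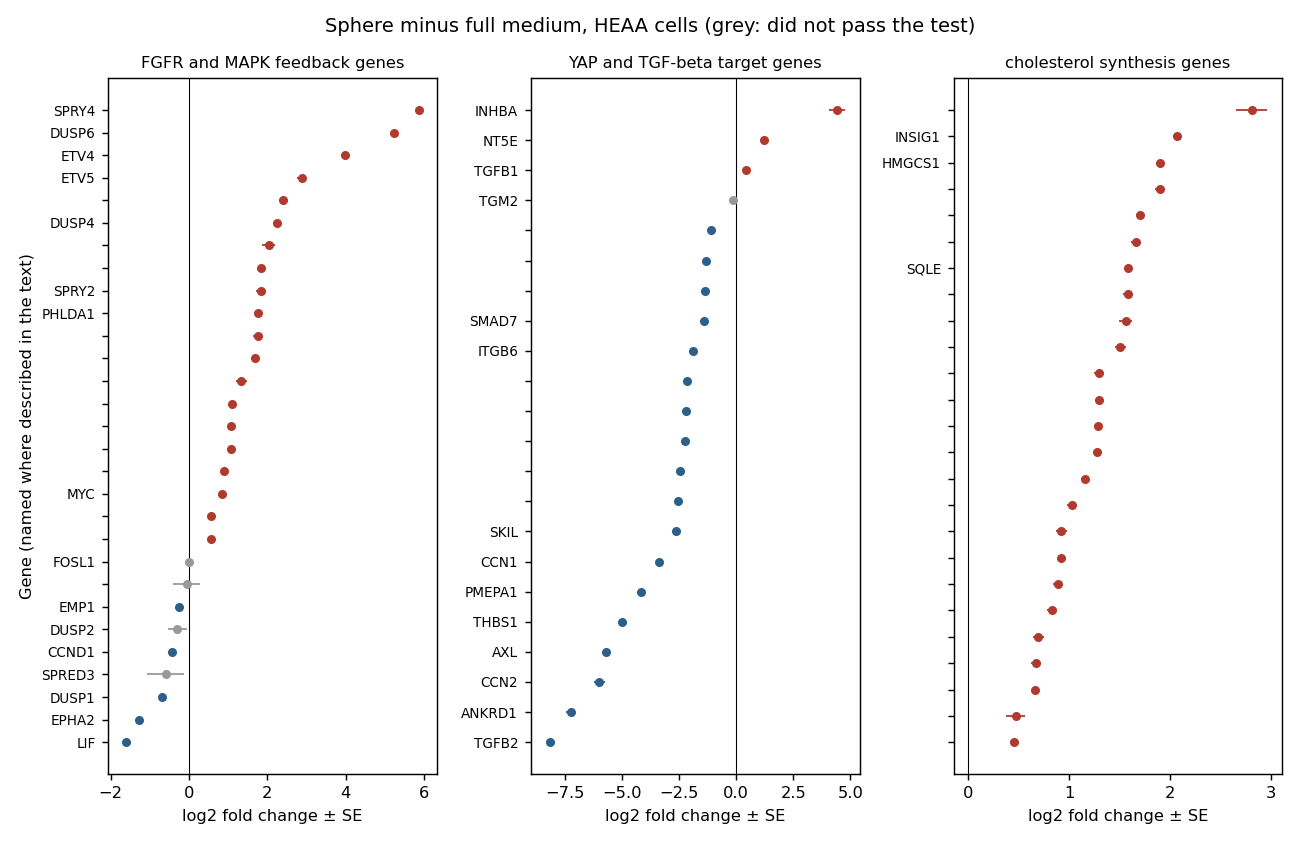
Log2 fold changes ± SE of sphere minus full medium for each tested member of 3 lists: FGFR and MAPK feedback genes, YAP and TGF-beta target genes and cholesterol synthesis genes. Red points rose, blue points fell and grey points did not pass the test, and only genes described in the text carry a name. In the cholesterol list all 25 members lie above 0, and in the YAP and TGF-beta list 18 of 22 fell.

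The receptors themselves moved differently. FGFR3 rose by less than 2-fold, from 120.2 to 159 CPM (0.40 ± 0.04), FGFR2 fell from 226 ± 2.43 CPM to 79.6 ± 3.13 CPM (-1.51 ± 0.04), and FGFR4 and FGFR1 rose from low levels (1.24 to 4.74 CPM and 0.361 to 1.1 CPM). FGFBP1, a carrier that releases FGFs from matrix, was at 85.6, 89.9 and 90.7 CPM in full medium and 1367, 1363 and 1318 CPM in sphere medium (log2 fold change 3.93 ± 0.05). The heparan sulfate proteoglycan SDC1, a coreceptor, went from 397 ± 11.2 CPM to 1163 ± 49.9 CPM. EGFR fell slightly, from 1038 ± 13.9 CPM to 837 ± 10.6 CPM, and ERBB2 fell from 159 ± 3.31 CPM to 89.2 ± 5.74 CPM. The EGFR ligands AREG, HBEGF, EREG and TGFA, which cells make themselves, rose: AREG was at 31.4, 31.4 and 29.2 CPM in full medium and 152, 153 and 142 CPM in sphere medium and HBEGF at 16.2, 15.6 and 16 CPM in full medium and 69.9, 73 and 66.4 CPM in sphere medium. Of 13 ERBB and EGF-family genes 8 rose and 5 fell, and of 16 FGF receptors, ligands and partners 9 rose and 4 fell. FGF1 and FGF2 themselves did not pass the count filter. EGFR, the receptor of the added EGF, thus changed by less than any of the 4 ligands.

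Immediate early genes, the quick transcripts of growth factor signals, were mixed. Of 16 tested 8 rose and 3 fell, and with library totals alone 7 rose and 7 fell. EGR1, a zinc finger factor, was at 5.68, 5.31 and 5.31 CPM in full medium and 49.8, 46.3 and 39.4 CPM in sphere medium (log2 fold change 3.06 ± 0.11), and FOS was at 2.26, 2.42 and 2.1 CPM in full medium and 12.8, 10.9 and 7.18 CPM in sphere medium (2.20 ± 0.22). JUN fell from 50.6 ± 1.27 CPM to 33.4 ± 4.07 CPM, and ATF3, a stress-induced member of the family, fell from 32.4 ± 0.467 CPM to 7.7 ± 0.641 CPM. JUNB (115 to 115 CPM), FOSL2 (187 to 184 CPM) and JUND (39.2 to 37.4 CPM) did not pass the test. EGR1 and FOS thus rose, while none of the 3 JUN genes did, and with library totals alone JUNB, JUND and FOSL2 were called lower.

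Targets of YAP and TGF-beta mostly fell. Of 22 tested, 18 fell and 3 rose (median -2.22), and 3 of the 22 passed the filter only through full-medium libraries. THBS1, a matricellular activator of TGF-beta, was at 2812, 3122 and 3033 CPM in full medium and 96.6, 95.2 and 87.9 CPM in sphere medium (log2 fold change -5.00 ± 0.09, edgeR adjusted p = 2.19e-21). AXL, a receptor kinase, was at 247, 252 and 256 CPM in full medium and 4.83, 5.05 and 4.81 CPM in sphere medium (-5.69 ± 0.08). TGFB2, the ligand TGF-beta 2, was at 26.3, 29.1 and 29.7 CPM in full medium and 0.13, 0 and 0.13 CPM in sphere medium, and the cardiac ankyrin repeat gene ANKRD1 at 14, 14.1 and 12.8 CPM in full medium and 0.13, 0.042 and 0.065 CPM in sphere medium. CCN2 and CCN1, matricellular proteins widely used as YAP readouts, went from 5.08 ± 0.129 CPM to 0.0737 ± 0.037 CPM and from 267 ± 13.1 CPM to 26.1 ± 0.574 CPM. The SMAD targets PMEPA1, SKIL and SMAD7 fell from 431 ± 13.3 CPM to 23.7 ± 0.916 CPM, from 163 ± 2.2 CPM to 26.6 ± 2.44 CPM and from 33.7 ± 1.49 CPM to 12.4 ± 0.848 CPM. The 3 rises were INHBA (0.0903 to 2.04 CPM), the 5′-nucleotidase NT5E (92.1 to 217 CPM) and TGFB1 (73.9 to 99.1 CPM). The ligands TGFB1 and TGFB2 thus moved in opposite directions, while matricellular targets and the SMAD feedback genes fell.

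GGAATG, the core that TEAD factors bind as partners of YAP, was searched in the same windows on both strands. It was present in 11.9% of all 27305 genes and in 4 of 18 genes of this list with a window, CCN2, ANKRD1, TGFB2 and THBS1. The windows of CCN2 (chr6:131951373-131951622, minus strand) and ANKRD1 (chr10:90921088-90921337, minus strand) hold it 3 and 2 times and are shown as readouts that fell to near 0, with GGAATG in capitals.
CCN2: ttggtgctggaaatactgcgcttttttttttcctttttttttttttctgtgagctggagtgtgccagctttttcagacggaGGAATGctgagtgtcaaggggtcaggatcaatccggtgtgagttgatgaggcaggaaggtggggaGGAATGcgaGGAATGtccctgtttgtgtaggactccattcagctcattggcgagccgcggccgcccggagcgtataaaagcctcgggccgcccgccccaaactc
ANKRD1: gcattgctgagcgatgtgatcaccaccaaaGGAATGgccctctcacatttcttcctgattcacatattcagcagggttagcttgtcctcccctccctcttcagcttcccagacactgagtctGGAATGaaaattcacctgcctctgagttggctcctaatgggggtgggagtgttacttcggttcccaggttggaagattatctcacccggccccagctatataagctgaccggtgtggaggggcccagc

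Actin and contractile genes, targets of SRF, were lower in 17 of 24 cases and higher in 4. TAGLN, transgelin, was at 62.4, 60.2 and 64 CPM in full medium and 1.32, 1.19 and 1.46 CPM in sphere medium (log2 fold change -5.54 ± 0.10), and the myosin light chain MYL9 at 19.3, 20.2 and 21.8 CPM in full medium and 0.389, 0.212 and 0.26 CPM in sphere medium (-6.07 ± 0.16). TPM1 and CALD1, which regulate actin filaments, went from 379 ± 4.63 CPM to 123 ± 1.63 CPM and from 314 ± 10.2 CPM to 143 ± 7.91 CPM. The core cytoskeleton changed less, with ACTB, whose call was lost in 4 of 6 fits without 1 library, at 4213 to 3993 CPM (-0.08 ± 0.03) and MYH9 at 2890.0 to 1656 CPM (-0.80 ± 0.03). TAGLN2 and FHL1 rose, and SRF rose by 0.13 on the log2 scale but was at -0.01 with library totals alone. The smooth muscle genes TAGLN and MYL9 thus fell, whereas CNN1, calponin of the same muscle, rose (2.91 ± 0.48). The SE of CNN1 was larger than the 0.10 of TAGLN and the 0.16 of MYL9, so its rise was estimated less precisely.

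Genes of matrix and attachment fell as well. Of 23 matrix genes 4 rose and 16 fell, 3 of the 23 passing the filter only through full-medium libraries, and of 22 integrins and laminins 3 rose and 16 fell. FN1, fibronectin, was at 1407, 1513 and 1545 CPM in full medium and 41, 41.2 and 42.9 CPM in sphere medium (log2 fold change -5.16 ± 0.08, edgeR adjusted p = 1.31e-22). COL12A1, a fibril-associated collagen, was at 773, 829 and 811 CPM in full medium and 45.3, 44.1 and 43.4 CPM in sphere medium (-4.18 ± 0.06). The crosslinking oxidase LOXL4 went from 211 ± 9.43 CPM to 0.374 ± 0.154 CPM, a 526-fold fall, and the proteoglycan LUM went from 33 ± 1.74 CPM to 0.373 ± 0.0288 CPM. The basement membrane collagens COL4A1 and COL4A2 fell from 57.7 ± 1.43 CPM to 1.21 ± 0.32 CPM and from 1.09 ± 0.0794 CPM to 0.0706 ± 0.0501 CPM. COL6A1 rose against the list, from 3.95 ± 0.157 CPM to 56.5 ± 4.43 CPM (3.84 ± 0.07). Among receptors ITGB6, which activates TGF-beta, fell from 246 ± 8.39 CPM to 66.2 ± 2.21 CPM, and ITGAV fell from 366 ± 5.29 CPM to 159 ± 4.34 CPM. ITGA6 rose (0.40 ± 0.04) and its partner ITGB4 fell (-0.32 ± 0.05), while the laminin 332 chains LAMA3 and LAMB3 fell. Hemidesmosomal COL17A1 was called higher (0.13 ± 0.05) but was at -0.01 with library totals alone. Matrix proteases were balanced, with 7 of 15 higher and 7 lower: the collagenase MMP1 was at 0.035, 0.256 and 0.223 CPM in full medium and 57, 54.2 and 57.6 CPM in sphere medium, and the inhibitors TIMP2 and TIMP3 fell from 394 ± 8.57 CPM to 44.7 ± 1.1 CPM and from 1117 ± 21.7 CPM to 139 ± 3.89 CPM. CDH2, N-cadherin, fell from 11.3 ± 1.44 CPM to 0.215 ± 0.0737 CPM, and SNAI2 rose from 46.1 to 64.1 CPM. Their list, cadherins and regulators of epithelial-mesenchymal transition, had 5 of 11 members higher and 4 lower, or 4 and 4 with library totals alone.

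Among the 15 largest falls, besides LOXL4, TGFB2, ANKRD1 and LUM, was ATOH8, a helix-loop-helix factor, at 65.7, 63.9 and 64.6 CPM in full medium and 0.078, 0.042 and 0.097 CPM in sphere medium. The others were PSG5, CYP24A1, FGF14, THSD7A, FAT4, DIO2, ITGBL1, SLC16A12, ALPP and PLAC8. CYP24A1, the enzyme that inactivates vitamin D, was at 334, 341 and 338 CPM in full medium and 1.5, 1.91 and 1.1 CPM in sphere medium (log2 fold change -7.83 ± 0.08). DIO2, the deiodinase that activates thyroid hormone, was at 60.2, 61.9 and 65.9 CPM in full medium and 0.597, 0.297 and 0.422 CPM in sphere medium (-7.07 ± 0.11). FAT4, a giant cadherin, went from 60.9 ± 0.363 CPM to 0.4 ± 0.0856 CPM, and ITGBL1 went from 266 ± 2.74 CPM to 2.39 ± 0.32 CPM. PSG5 belongs to a family of near-identical genes, so its share of reads is uncertain. These genes were expressed in all full-medium libraries and nearly lost in all sphere libraries, a pattern favoured by choosing the largest falls without overlap.

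BMP signalling and ID genes fell in 14 of 17 cases and rose in 2, and 5 of the 17 passed the filter only through full-medium libraries. ID1 and ID3, direct BMP targets that block helix-loop-helix factors, were at 257, 242 and 243 CPM in full medium and 72.8, 63.9 and 72 CPM in sphere medium and at 156, 154 and 159 CPM in full medium and 20.9, 17.2 and 21 CPM in sphere medium. SMAD6, the inhibitory SMAD of the pathway, went from 77.4 ± 1.44 CPM to 7.18 ± 0.616 CPM (log2 fold change -3.41 ± 0.06). The 2 rises were the ligand BMP7 (from 0.378 ± 0.0472 CPM to 17 ± 0.926 CPM) and the activin antagonist FST (from 6.87 ± 0.306 CPM to 36.4 ± 1.43 CPM). Notch genes were mixed, with 7 of 19 higher and 8 lower: the targets HEY1 and NRARP rose from 2.92 ± 0.496 CPM to 39.9 ± 1.97 CPM and from 2.01 ± 0.407 CPM to 33.3 ± 2.43 CPM, the receptor NOTCH3 rose from 129 ± 2.54 CPM to 411 ± 36.3 CPM and the ligand JAG2 fell from 129 ± 9.1 CPM to 33.4 ± 3.25 CPM. In the WNT and stem cell list 11 of 22 rose and 8 fell, among them the hyaluronan receptor CD44 (from 582 ± 13.1 CPM to 1295 ± 21.9 CPM) and the WNT inhibitor DKK1 (from 21.5 ± 0.959 CPM to 2.67 ± 0.353 CPM). LGR5 and PROM1 did not pass the filter, and SOX2 rose from 2 counts to 0.694 CPM.

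The insulin-like growth factor axis changed at its most abundant members. IGFBP3, a secreted binding protein, was at 10004, 10188 and 10269.9 CPM in full medium and 412, 421 and 405 CPM in sphere medium (log2 fold change -4.62 ± 0.27, edgeR adjusted p = 1.11e-12). IGFBP7 and IGFBP4 fell from 262 ± 16.6 CPM to 36.1 ± 2.4 CPM and from 242 ± 6.2 CPM to 109 ± 5.53 CPM, and the receptors IGF1R and INSR fell from 365 ± 4.57 CPM to 163 ± 1.83 CPM and from 7.1 ± 0.612 CPM to 2.61 ± 0.283 CPM. IGF2, the ligand, was at 1519, 1473 and 1532 CPM in full medium and 3994, 3719.9 and 3798 CPM in sphere medium (1.35 ± 0.03), and IGFBP2 rose from 55 ± 2.02 CPM to 209 ± 16.5 CPM. Of 12 members 3 rose and 9 fell. Ligand and receptor thus moved in opposite directions.

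All 25 genes of the cholesterol synthesis list rose (median 1.28), also with library totals alone. HMGCS1, a synthase early in the pathway, was at 159.9, 151 and 158 CPM in full medium and 575, 596 and 579.8 CPM in sphere medium (log2 fold change 1.90 ± 0.04, edgeR adjusted p = 8.48e-20). INSIG1, the sterol-sensing retention protein, went from 33.8 ± 0.316 CPM to 142 ± 2.16 CPM and the epoxidase SQLE from 137 ± 3.48 CPM to 409 ± 4.53 CPM. The sterol exporters ABCA1 and ABCG1, targets of the liver X receptors, rose as well, from 5.7 ± 0.534 CPM to 30.3 ± 1.62 CPM and from 20.0 ± 0.588 CPM to 77.9 ± 1.11 CPM. Their list was mixed: of 12 liver X receptor and cholesterol export genes tested 7 rose and 3 fell, with a median of 0.32. With library totals alone 5 rose and 3 fell. In fatty acid synthesis 12 of 19 rose and 6 fell: SCD, the desaturase, was at 111, 115 and 118 CPM in full medium and 1478, 1556 and 1474 CPM in sphere medium (3.71 ± 0.04) and FASN went from 434 ± 9.71 CPM to 1071 ± 111 CPM, while FADS2 fell from 16.5 ± 0.811 CPM to 8.88 ± 0.525 CPM. PPAR targets and oxidation genes fell in 10 of 17 cases and rose in 5, 3 of the 17 passing the filter only through full-medium libraries, with CPT1A, the gate to mitochondrial oxidation, at 98.2 to 57.6 CPM. All genes of the cholesterol synthesis list were thus higher, while those of the export list moved in both directions.

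Glycolysis and hypoxia genes rose in 21 of 28 cases and fell in 4. CA12, a membrane carbonic anhydrase, was at 1.13, 1.32 and 0.795 CPM in full medium and 178, 171 and 182 CPM in sphere medium (log2 fold change 7.37 ± 0.09). NDRG1 went from 45 ± 1.63 CPM to 405 ± 7.76 CPM and VEGFA from 56.5 ± 1.61 CPM to 243 ± 4.82 CPM. Enzymes of the pathway rose by smaller steps, HK2 from 42.9 ± 0.884 CPM to 112 ± 8.03 CPM, LDHA from 971 ± 27.5 CPM to 1648 ± 38.1 CPM and GAPDH from 2685 ± 114 CPM to 4634 ± 141 CPM. ADM fell from 108 ± 4.36 CPM to 56.5 ± 16.3 CPM, PFKFB3, which sets the pace of glycolysis, fell from 109.8 ± 2.12 CPM to 24.2 ± 4.18 CPM, and CA9 was under 1 CPM in both media (0.396 to 0.578 CPM). The classic hypoxia markers thus did not all move one way.

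RNA for the respiratory chain split by genome. Of 23 nuclear genes tested 22 rose and 0 fell (median 0.65), such as SDHB (from 55 ± 2.35 CPM to 118 ± 1.85 CPM) and CYC1 (from 144 ± 4.72 CPM to 279 ± 17.3 CPM), while SDHA did not pass the test and was called lower with library totals alone. All 13 protein-coding RNAs of the mitochondrial genome fell (median -0.70), such as MT-CO1 (from 12331 ± 1077 CPM to 6097 ± 582 CPM). Mitochondrial RNA was 4.89% to 5.69% of the counts in full medium and 2.63% to 3.18% in sphere medium, and its part in other results was not tested. Ribosomal protein genes took 4.44% to 4.69% and 5.49% to 5.58% of the counts. Of 31 of them 30 rose by small steps (median 0.42), with 29 higher and 1 lower under library totals alone. All 20 ribosome biogenesis genes rose, among them the nucleolar proteins NCL (from 968 ± 15 CPM to 1339 ± 52.5 CPM) and NPM1 (from 1082 ± 19.1 CPM to 1539 ± 70.3 CPM), and 18 were still called with library totals alone.

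Amino acid stress genes under ATF4 rose in 17 of 24 cases and fell in 5. TRIB3, a pseudokinase induced by ATF4, was at 43.7, 43.7 and 43.1 CPM in full medium and 210.2, 191 and 199 CPM in sphere medium (log2 fold change 2.20 ± 0.06). PSAT1 and PHGDH of serine synthesis went from 82.5 ± 2.79 CPM to 283 ± 8.79 CPM and from 53.1 ± 1.22 CPM to 128 ± 6.26 CPM, and ASNS, asparagine synthetase, from 50.6 ± 3.11 CPM to 169 ± 7.25 CPM. The amino acid exchangers SLC7A5, SLC3A2 and SLC7A11 fell, SLC7A5 from 3309 ± 80.3 CPM to 1595 ± 90.8 CPM and SLC7A11 from 299 ± 4.63 CPM to 117 ± 4.76 CPM. All 14 heat shock genes rose, HSPA8 from 872 ± 19.2 CPM to 2185 ± 12.3 CPM and HSPH1 from 153 ± 1.53 CPM to 421 ± 6.81 CPM, whereas 2 endoplasmic reticulum chaperones fell (HSPA5 at 974 to 853 CPM and HSP90B1 at 1259 to 828 CPM), and of 16 unfolded protein response genes 7 rose and 8 fell. NRF2 targets rose in 16 of 22 cases and fell in 6: the aldo-keto reductase AKR1B10 was at 1.7, 1.61 and 1.91 CPM in full medium and 39.6, 35.4 and 36.3 CPM in sphere medium (4.41 ± 0.09) and HMOX1 fell from 8.65 ± 0.204 CPM to 3.38 ± 0.466 CPM. The cytosolic chaperones HSPA8 and HSPH1 thus moved opposite to HSPA5 and HSP90B1 of the endoplasmic reticulum.

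Interferon-stimulated genes fell in 22 of 31 cases and rose in 6 (median -1.09). IFIT1, which binds foreign RNA caps, was at 21.4, 19 and 20.9 CPM in full medium and 1.64, 1.95 and 1.36 CPM in sphere medium (log2 fold change -3.65 ± 0.10, edgeR adjusted p = 1.44e-18). IFIT2 was at 52.8, 51.5 and 51.5 CPM in full medium and 1.82, 2.21 and 1.72 CPM in sphere medium (-4.78 ± 0.09) and IFIT3 at 46.6, 42.3 and 43.2 CPM in full medium and 5.55, 5.82 and 5.97 CPM in sphere medium (-2.93 ± 0.06). IRF1, an interferon-induced factor, went from 90.2 ± 1.39 CPM to 21.8 ± 0.979 CPM, and ISG15, a ubiquitin-like modifier, from 9.94 ± 0.39 CPM to 2.65 ± 0.138 CPM. OAS2, which senses double-stranded RNA, rose against the list, from 14.4 ± 0.119 CPM to 73.8 ± 0.412 CPM (2.36 ± 0.05), and OAS3 rose from 141 to 214 CPM. Of 15 antigen presentation genes tested 13 fell and 0 rose, among them B2M (from 779 ± 9.26 CPM to 453 ± 15.1 CPM), HLA-B (from 73.4 ± 1.61 CPM to 37.6 ± 1.76 CPM) and the immunoproteasome subunit PSMB9 (from 15.2 ± 0.618 CPM to 3.86 ± 0.462 CPM). HLA genes have close copies and many alleles, which makes their assignment uncertain. The IFIT and class I genes named here thus fell and OAS2 and OAS3 rose, although OASL of the same family fell (1.65 to 0.32 CPM).

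GAAANNGAAA, a core of the response element for interferon-activated factors, was present on either strand in 3.07% of the 27305 windows and in 13 of 23 genes of the interferon list with one. The windows of IFIT1 (chr10:89392373-89392622, plus strand) and ISG15 (chr1:1013247-1013496, plus strand), each with 2 matches in capitals, overlapping in ISG15 and on the other strand in IFIT1, are shown as examples from the genes that fell.
IFIT1: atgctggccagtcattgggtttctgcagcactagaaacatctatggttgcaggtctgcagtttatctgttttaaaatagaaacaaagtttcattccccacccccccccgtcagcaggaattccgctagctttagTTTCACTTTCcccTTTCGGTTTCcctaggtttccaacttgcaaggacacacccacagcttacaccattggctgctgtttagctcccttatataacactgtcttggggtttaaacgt
ISG15: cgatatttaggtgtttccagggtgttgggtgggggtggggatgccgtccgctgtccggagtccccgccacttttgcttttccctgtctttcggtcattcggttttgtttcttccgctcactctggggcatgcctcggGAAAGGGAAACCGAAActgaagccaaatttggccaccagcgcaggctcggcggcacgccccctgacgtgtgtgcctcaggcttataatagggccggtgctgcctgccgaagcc

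Most epithelial cytokines of the IL-1 family rose, although IL18 fell (from 68.1 ± 2.39 CPM to 46.5 ± 0.535 CPM). IL33, an alarmin, was at 0.141, 0.037 and 0.032 CPM in full medium and 36.5, 38.2 and 38.5 CPM in sphere medium (log2 fold change 9.01 ± 0.16), and IL36G, of stressed epidermis, reached 14.5, 13.5 and 14 CPM from 3 counts. IL1B went from 35.3 ± 0.245 CPM to 117 ± 6.1 CPM and IL1A from 79.6 ± 0.896 CPM to 180.0 ± 12.9 CPM, and so did their antagonists IL1RN (from 6.3 ± 0.627 CPM to 23.7 ± 1.07 CPM) and IL36RN (from 2.02 ± 0.172 CPM to 13.2 ± 0.985 CPM). The chemokines CXCL8 and CCL20 reached 11.8 and 4.78 CPM. The adhesion receptor ICAM1 and the cytokines IL15 and IL6 fell, IL6 from 29 counts to 0. Of 25 genes tested 15 rose and 7 fell, 6 of the 25 passed the filter only through sphere libraries, and 13 more did not pass it. The agonists IL1A and IL1B and the antagonist IL1RN were thus all higher.

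Growth-cycle genes changed by small amounts. Of 29 DNA replication genes 15 rose and 9 fell with a median of 0.10, and with library totals alone 8 rose and 13 fell with a median of -0.04, so the list has no direction that both scalings share. RRM2, the ribonucleotide reductase subunit, was at 208, 202 and 213 CPM in full medium and 359, 370.1 and 356 CPM in sphere medium (log2 fold change 0.80 ± 0.04), and TYMS, thymidylate synthase, at 71.1, 73.1 and 71.2 CPM in full medium and 44.9, 46.1 and 42.3 CPM in sphere medium (-0.69 ± 0.04). PCNA fell from 311 ± 12.5 CPM to 243 ± 3.45 CPM and MCM5 from 155 ± 1.86 CPM to 113 ± 10.8 CPM. Of 25 mitosis genes 16 rose and 5 fell, or 11 and 9 with library totals alone: AURKA rose from 153 ± 3.43 CPM to 236 ± 4.08 CPM, and MKI67 and CENPF fell from 638 ± 9.5 CPM to 460.2 ± 12.1 CPM and from 490.2 ± 4.95 CPM to 279 ± 9.32 CPM. Among G1 genes CCND3 went from 33.2 ± 0.942 CPM to 113 ± 9.83 CPM and CCNE1 from 8.61 ± 0.193 CPM to 23 ± 1.76 CPM, while the inhibitor CDKN1A fell from 309 ± 6.33 CPM to 198 ± 3.67 CPM. Targets of p53 fell in 15 of 21 cases and rose in 4, with the repair gene XPC at 82.8 to 27.5 CPM and SFN, stratifin of squamous epithelium, rising from 146 ± 4.54 CPM to 721 ± 46.9 CPM (2.31 ± 0.04). MYC rose from 79.2 to 142 CPM.

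Among chromatin genes, a list of the KMT2C and KMT2D complex, with KDM6A left out and the related methyltransferases KMT2A and KMT2B added, had 7 of 11 members higher and 2 lower, all by less than 2-fold. With library totals alone 5 were higher and 3 lower. KMT2D was at 197 to 216 CPM (0.13 ± 0.05), and its small rise was at -0.0044 with library totals alone. KDM6B, the other H3K27 demethylase, was at 21.2, 22.3 and 22.1 CPM in full medium and 59.2, 53.2 and 56.3 CPM in sphere medium (log2 fold change 1.37 ± 0.05). EZH2, which writes the mark, went from 78.4 ± 2.47 CPM to 68.3 ± 2.42 CPM, and of 12 genes, PRC2 subunits and KDM6B itself, 6 rose and 4 fell. With library totals alone 5 of the 12 rose and 6 fell. HOX genes fell in 14 of 25 cases by edgeR and in 9 by DESeq2, and rose in 3 by both, HOXA3 falling from 12.8 ± 0.351 CPM to 3.36 ± 0.498 CPM and HOXA9 rising from 83.6 ± 1.7 CPM to 117 ± 2.96 CPM. KDM6B thus changed by more than any subunit tested of either complex.

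Genes read by small molecules of the medium were mixed. Of 19 retinoid genes 5 rose and 10 fell, and 3 of the 19 passed the filter only through full-medium libraries: DHRS9, a retinol dehydrogenase, was at 6.99, 7.65 and 6.64 CPM in full medium and 205, 206 and 202 CPM in sphere medium (log2 fold change 4.85 ± 0.05), and the retinoid-induced reductase DHRS3 was at 82.2, 86.1 and 82.3 CPM in full medium and 4.15, 4.33 and 3.86 CPM in sphere medium (-4.35 ± 0.07). RARRES3 and ALDH1A3 fell from 45 ± 1.81 CPM to 1.99 ± 0.195 CPM and from 166 ± 5.39 CPM to 23.1 ± 0.705 CPM. Glucocorticoid targets rose in 10 of 20 cases and fell in 6, FKBP5 from 1.33 ± 0.14 CPM to 6.69 ± 0.435 CPM and PER1 from 6.34 ± 0.289 CPM to 14.9 ± 1.18 CPM among the rises. Their median of 0.11 was -0.02 with library totals alone. Of the aryl hydrocarbon receptor genes 4 of 10 rose and 4 fell, CYP1B1 rising from 4.99 ± 0.392 CPM to 36.9 ± 1.28 CPM and ALDH3A1 falling from 127 ± 7.21 CPM to 36 ± 2.35 CPM. With library totals alone 3 of the 10 rose and 5 fell. TFRC, the transferrin receptor, fell from 1107 ± 7.94 CPM to 353 ± 15.1 CPM, and of 15 iron genes 6 rose and 6 fell. Among 19 selenium genes 9 rose and 6 fell, or 8 and 8 with library totals alone, with GPX2 from 37.4 ± 2.59 CPM to 134 ± 7.95 CPM. Of 24 lysosome and autophagy genes 14 rose and 8 fell, the protease CTSL rising from 50.6 ± 2.4 CPM to 241 ± 1.95 CPM and CTSH falling from 571 ± 11.8 CPM to 72.4 ± 2.42 CPM. With library totals alone 11 rose and 10 fell. Retinoid genes were thus the only one of these groups in which a majority of members fell.

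HEAA cells were then compared with EV cells, which share the medium change but lack the vector's UTX. Of the 6754 genes that rose in HEAA cells, 5337 rose in EV cells too, 79.0% of the HEAA and 82.1% of the EV rises. Of the 7135 falls 5001 were shared, 70.1% and 78.7%. Across genes, which are not independent replicates, the log2 fold changes had a Pearson r of 0.827, with no library in common. In EV cells 33.1% of the tested genes rose and 32.4% fell, 65.5% in all. The difference between the responses passed edgeR's test for 6481 genes, 33.0% of those tested: 3678 (18.7%) had a higher and 2803 (14.3%) a lower fold change in HEAA cells. With upper-quartile scaling 3227 were higher and 3285 lower, and with library totals alone 4481 and 2322, so which direction had more genes depends on the scaling. By edgeR with TMM factors 533 (2.72%) and 559 (2.85%) differed by at least 2-fold. The gene lists below are to be read against these shares.

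Squamous genes made up most of the 8 largest positive differences from EV cells, and several of them lay higher in EV than in HEAA cells in full medium. S100A8 was at 21.8, 22 and 17.9 CPM in full medium in EV cells and at 0.212, 0.476 and 0.318 CPM in HEAA cells, but in sphere medium at 658 ± 19 and 941 ± 25.8 CPM. The difference of the 2 log2 fold changes was 6.44 ± 0.17 (edgeR adjusted p = 9.29e-17). SERPINB3 was at 4.31 ± 0.27 CPM in EV and 0.0636 ± 0.11 in HEAA cells in full medium, and at 83.8 ± 2.38 and 81.9 ± 1.35 in sphere medium (difference 5.85 ± 0.32). DSG1 was at 5 ± 0.372 and 0.033 ± 0.0319 CPM in full medium and at 313 ± 22.6 and 89.2 ± 1.62 in sphere medium, so it ended lower in HEAA cells despite the larger fold. PI3 and CYP4F22 differed likewise, by 6.30 ± 0.27 and 6.37 ± 0.84. KRT23 and S100A7 were higher in HEAA than in EV cells in sphere medium, at 20.5 ± 1.4 against 5.29 ± 0.863 CPM and 17.2 ± 0.541 against 1.88 ± 0.403 CPM. SDR9C7 had 0 counts in HEAA cells in full medium and was at 0.0494 ± 0.0338 CPM in EV cells, and in sphere medium it was at 11.4 ± 0.897 and 3.52 ± 0.506 CPM. Fitted differences for genes with 0 to 3 counts in a group depend on the prior count and are no bounds. TGM3 was at 0 in both in full medium and reached 36.9 ± 2.59 CPM in HEAA and 1.24, 1.01 and 1.46 CPM in EV cells, a rise of at least 1080.0-fold and at least 42.4-fold. With both full-medium groups at 0, the difference did not pass edgeR's test, but DESeq2 called it higher in HEAA cells. DESeq2 called 4 of 4 transglutaminases higher and edgeR 3 of 4, so the call for TGM3 depends on the method.

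By list, the response was higher in HEAA than in EV cells for 28 of 29 DNA replication genes and lower for 0. MCM10, a replication initiation factor, was at 25.7 to 30.5 CPM in HEAA cells and at 42.4 to 29.6 CPM in EV cells, and PCNA, the sliding clamp, at 311 to 243 CPM and at 472 to 252 CPM. It was higher for 18 of 20 ribosome biogenesis genes and lower for 0. For FGFR and MAPK feedback genes it was higher for 20 of 29 and lower for 2, with SPRY4 at 3.08 ± 0.234 to 60.5 ± 1.48 CPM in EV cells. ATF4 genes went the other way, with 16 of 24 lower in HEAA cells and 0 higher, ASNS among them (50.6 to 273 CPM in EV cells). Of p53 targets 14 of 21 were lower and 1 higher. Under upper-quartile scaling, library totals alone and DESeq2 these 5 lists kept the direction that had more members. The cholesterol synthesis response was higher for 8 of 25 and lower for 3, or 5 and 6 with upper-quartile scaling, with a median log2 fold change of 1.19 in EV and 1.26 in UTX cells. The YAP and TGF-beta response was higher for 9 of 22 and lower for 4, with medians of -2.05 and -2.08. The DNA replication and ATF4 lists thus lay on opposite sides of the EV response.

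Some genes changed in opposite directions, each direction called. CDKN2B, the cell cycle inhibitor p15, went from 95.7, 92 and 98.7 to 39.3, 41.1 and 41.9 CPM in HEAA cells and from 37.5, 38.4 and 38.1 to 61.2, 67.2 and 65.2 CPM in EV cells (difference -1.99 ± 0.06, edgeR adjusted p = 3.45e-15). NT5E rose in HEAA cells and fell in EV cells (113 to 57.6 CPM), with a difference of 2.21 ± 0.07. TGM5 rose in HEAA cells and fell in EV cells (1.82 to 0.543 CPM). The integrin ITGA1, the binding protein IGFBP6 and the factor MLXIPL also moved in opposite directions, with differences of 1.75 ± 0.16, -1.77 ± 0.07 and -1.41 ± 0.29. SESN3, a stress-induced regulator of mTORC1, had the largest negative difference among the genes named, at 0.035, 0.088 and 0.05 CPM in full and 9.11, 9.12 and 9.65 in sphere medium in EV cells, against 1.02, 0.732 and 0.668 CPM in full medium and 5.76, 5.86 and 5.81 CPM in sphere medium in HEAA cells. MUC4 fell in both, from 2.05 ± 0.146 to 0.828 ± 0.175 CPM in EV cells and from 14 ± 1.41 CPM to 0.719 ± 0.261 CPM in HEAA cells. LOXL2, a crosslinking oxidase whose fall in HEAA cells (3.41 to 1.3 CPM) lost its call in 6 of 6 fits without 1 library, was at 1.84, 7.55 and 0.518 CPM in the EV sphere libraries, a spread that overlaps with 0.779, 0.85 and 0.695 CPM in full medium.

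Against UTX cells the response differed much less often, for 1082 genes (5.51%), 423 with a higher (2.15%) and 659 with a lower fold change in HEAA cells (3.36%). With upper-quartile scaling these were 589 and 603. In UTX cells 35.1% of the tested genes rose and 35.4% fell, 70.5% in all. Rises shared with UTX cells were 6187, 91.6% of the HEAA and 89.8% of the UTX rises, and shared falls 6001, 84.1% and 86.4%. The Pearson r across genes was 0.911. The count of 659 was 423 without UTX sphere replicate 3 and 439 without HEAA full replicate 3. At least 2-fold differences numbered 21 higher (0.107%) and 54 lower (0.275%). IL33 had the largest positive one, at 0.174, 0.239 and 0.283 and 27.8, 27.8 and 27.8 CPM in UTX cells against 0.141, 0.037 and 0.032 and 36.5, 38.2 and 38.5 CPM in HEAA cells (difference 2.12 ± 0.53, edgeR adjusted p = 0.0203). SPINK5 ended higher in HEAA cells, at 41.6 ± 2.69 against 18.5 ± 1.77 CPM, from 2.52 ± 0.372 and 3.07 ± 0.296 CPM in full medium. CYGB, cytoglobin, NUPR1, a stress cofactor, and BDNF, a neurotrophin, were also among the 8 largest positive differences, with GPRC5D, SLC47A2 and RGL1. Of 12 fits that each left out 1 library, CYGB lost its call in 10, BDNF in 4 and IL33 in 3. NUPR1 was at 1.66 to 5.23 CPM in HEAA cells and at 1.71 to 2.25 CPM in UTX cells.

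By list, the response was lower in HEAA than in UTX cells for 9 of 29 DNA replication genes and higher for 0, and lower for 12 of 29 FGFR and MAPK feedback genes and higher for 1, where 3.36% of all genes were lower. It was higher in HEAA cells for 3 of 24 ATF4 genes and 5 of 21 p53 targets and lower for 0 of either, where 2.15% of all genes were higher. With library totals alone 4 ATF4 genes were higher and 1 lower. Other lists differed too. The response was higher for 5 of 10 aryl hydrocarbon receptor genes and 7 of 25 mitosis genes, and lower for 0 of either. It was lower for 9 of 28 hypoxia and glycolysis genes and 6 of 15 matrix proteases and inhibitors, and higher for 0 of either. Of ribosome biogenesis genes 2 of 20 were lower and 0 higher.

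S100A9, GRHL3 and TGM5, among the 8 largest negative differences against UTX cells, lay lower in UTX than in HEAA cells in full medium. S100A9 was at 5.54 ± 0.868 CPM in UTX and 19.8 ± 0.335 in HEAA cells in full medium, and at 2570.4 ± 73.5 and 3044 ± 55.1 in sphere medium (difference -1.61 ± 0.08). GRHL3 was at 2.19 ± 0.306 and 7.2 ± 0.196 CPM in full medium and at 27.8 ± 1.11 and 35.5 ± 0.463 in sphere medium (-1.35 ± 0.12). TGM5 was at 0.436, 0.517 and 0.44 CPM and 4.06, 5.55 and 6.32 CPM in UTX cells (-1.64 ± 0.34). NRARP, a feedback gene of Notch, AKAP12, ADAM19, B3GALT5 and CA12 made up the 8. ADAM19 fell in both, from 24.7 ± 1.8 CPM to 4.91 ± 0.715 CPM in HEAA cells and from 17 to 8.87 CPM in UTX cells. TGM3 was at 34.2, 38.2 and 35.4 CPM in sphere medium in UTX cells, against 39.7, 36.5 and 34.6 CPM in HEAA cells. SPRR2D reached 79.7 ± 3.61 CPM in UTX, 135 ± 2.17 in EV and 139.7 ± 4.28 in HEAA cells. No SPRR gene had a difference from UTX cells that passed the test, which does not show that they responded alike.

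**Figure D4:**
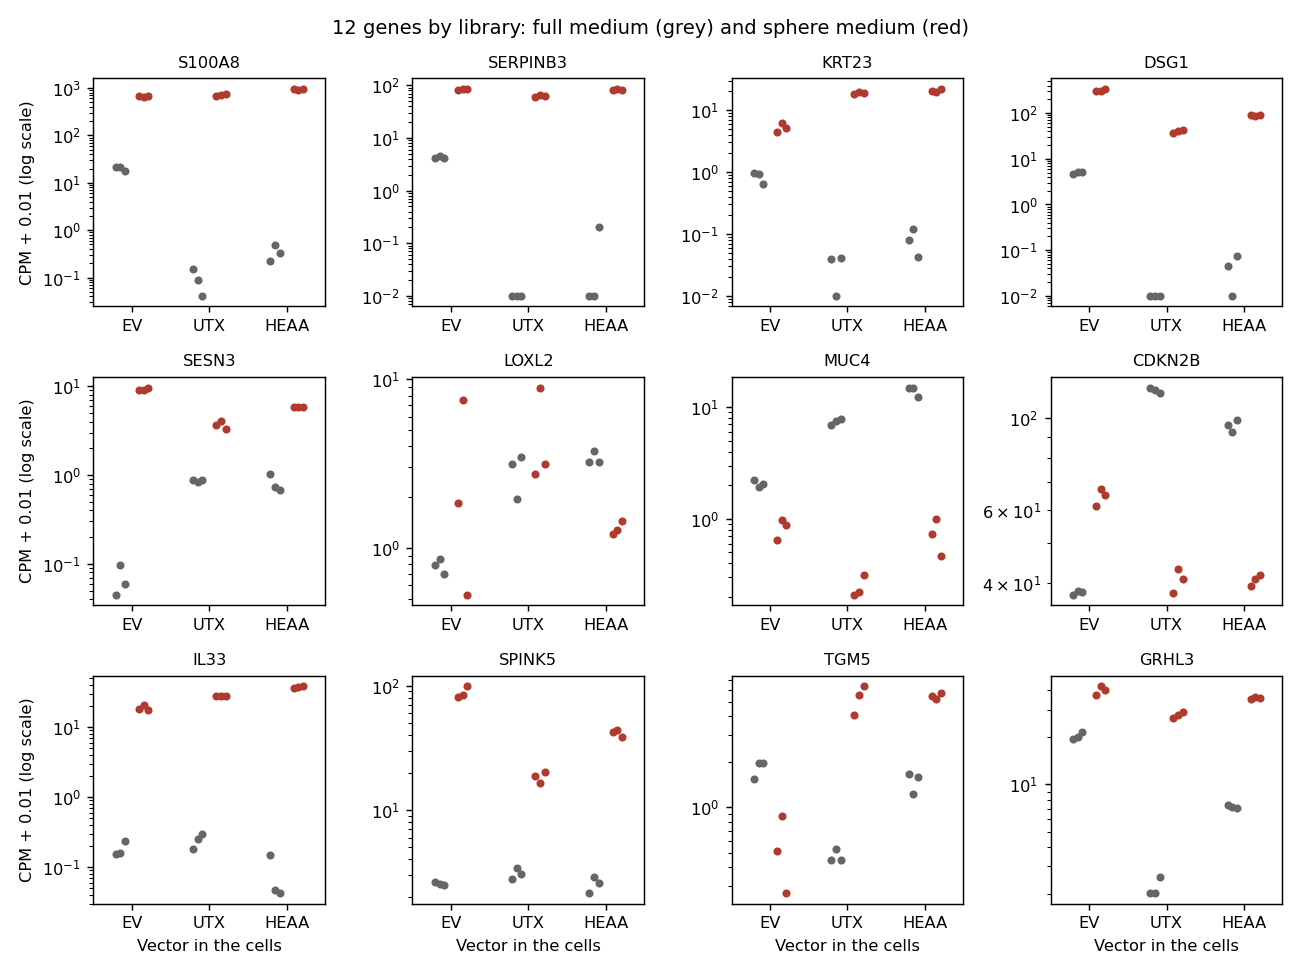
Levels of 12 genes in the 18 libraries, as CPM + 0.01 on a log scale, by the vector in the cells, with full medium in grey and sphere medium in red. S100A8, SERPINB3, KRT23 and DSG1 lie higher in full medium in EV than in HEAA cells, and CDKN2B moves up in EV and down in HEAA cells.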

How the data were processed

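RNA of UMUC1 cells carrying EV, UTX or HEAA was sequenced from full and sphere medium, with 3 libraries a group. RNA was taken with RNeasy and libraries were made with TruSeq, per the labels' protocols. The deposited values are estimated counts per gene, present as whole numbers and not scaled, from Salmon 0.8 with the build hg19 (GRCh37), per the submitters' processing notes, which also name DESeq2. No source at hand gives the step from transcripts to genes. All 18 libraries of the first experiment were fitted together in edgeR 4.0.16 (R 4.3.3, limma 3.58.1) with TMM factors and 1 mean for each group, after filterByExpr, by the quasi-likelihood test and Benjamini-Hochberg adjustment over the 19629 of 58288 genes that passed the filter. The common biological coefficient of variation was 4.578%. Differences between responses were tested as interaction contrasts. SE is the log2 fold change divided by the square root of F. Symbols came from the file for 26160 IDs and from the reference tables for 31482, and 646 had none. Simulated counts for the HEAA comparison covered 19629 genes, of which 50 were changed at each fold and 19429 were not. Of each 50, 34, 41, 48 and 48 were recovered at 1.5-, 2-, 4- and 8-fold, with 4 false calls among the 19429. In the data 70.8% of genes were called, so the simulation does not test scaling or false calls at so broad a change.

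The genes named are KDM6A, TGM3, SPRR2D, the SPRR and transglutaminase genes, the 15 largest rises and falls with a mean of at least 2 CPM and non-overlapping libraries, in each list up to 5 largest rises, 5 largest falls and the 3 highest members, and the 8 largest differences of each sign against EV and UTX cells. Genes called in opposite directions and familiar list members were added after their values were seen. The members and lists were chosen with earlier results of these data known. Same-numbered HEAA libraries of the 2 media had deviations that correlated at 0.0132, 0.0287 and 0.023, and differently numbered ones at -0.0251 to 0.005. All were near 0 and the numbers were not taken as pairs, although each same-numbered value was the highest for its library. Alternatives were DESeq2 1.42.0, other filters and scalings, a replicate block, the 6 HEAA libraries alone, a test against 1.5-fold and leaving out each library. The second experiment of the series was not used here. A few genes are not reported here.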

Additional observations from a re-analysis of the deposited data

Results flagged for a closer look

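The results here were picked out because the medium response of HEAA cells differed from that of EV or UTX cells by edgeR's test of the difference itself, with adjustment over all genes. Against EV cells 3678 genes had a higher and 2803 a lower log2 fold change in HEAA cells. Against UTX cells 423 were higher and 659 lower.

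The medium response, not the level, was higher in HEAA than in EV cells for S100A7 by 10.45, S100A8 by 6.44, CYP4F22 by 6.37, PI3 by 6.30, SERPINB3 by 5.85, KRT23 by 5.44, SDR9C7 by 5.35 and DSG1 by 5.21 on the log2 scale. In full medium in HEAA cells S100A7 and SDR9C7 had 0 counts, CYP4F22 had 1 and DSG1 had 3, so these fitted values depend on the prior count. The response was also higher for TGM5 by 3.64, NT5E by 2.21, ITGA1 by 1.75 and KDM6A by 1.54. KDM6A is what the vector carries and fell in EV cells.

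The response was lower in HEAA than in EV cells for SESN3 at -4.37, LOXL2 at -3.47, TCIM at -3.31, MUC4 at -3.01, MCF2L at -2.77, BMP3 at -2.61, AHNAK2 at -2.56 and CSPG4 at -2.54. CDKN2B differed by -1.99, IGFBP6 by -1.77 and MLXIPL by -1.41. For LOXL2 the EV sphere libraries ranged more widely, at 1.84, 7.55 and 0.518 CPM, than those of any HEAA group.

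Against UTX cells the response of HEAA cells was higher for IL33 by 2.12, SPINK5 by 1.45, CYGB by 1.36, NUPR1 by 1.25, GPRC5D by 1.21, SLC47A2 by 1.20, RGL1 by 1.10 and BDNF by 1.09. It was lower for TGM5 at -1.64, S100A9 at -1.61, NRARP at -1.53, AKAP12 at -1.48, ADAM19 at -1.39, B3GALT5 at -1.38, CA12 at -1.37 and GRHL3 at -1.35. TGM5 thus stood on opposite sides of the EV and UTX responses.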

How the results depend on the processing

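Of 200 alternative values of the counts of called genes, 192 stayed within 1.5 times the reported count and 8 did not. Against a 1.5-fold threshold 2422 genes were higher and 3336 lower in HEAA cells. Against UTX cells, differences of at least 2-fold numbered 86 and 138 without a count filter, and 7 and 29 with DESeq2, in place of 21 and 54. Leaving out 1 library at a time gave 6506 to 6769 rises and 6469 to 6865 falls in HEAA cells, 3282 to 3943 higher and 2259 to 2701 lower differences against EV cells, and 284 to 557 and 423 to 662 against UTX cells. The cause was not tested. DESeq2 kept 92.9% and the 6 HEAA libraries alone 94.2% of the 13889 calls with their direction.

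With the replicate number as a block, 6720 genes rose and 7054 fell, and 13726 of the calls were kept. Each full-medium library's deviations correlated best with its own number in sphere medium, a hint from the data and not from the design.

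Other scalings turned the sign of 9 named genes with log2 fold changes near 0. With upper-quartile factors and library totals alone, in that order, JUNB was at -0.1329 and -0.133, FOSL1 at -0.1286 in both, SDHA at -0.1329 and -0.1328, SRF at -0.0081 and -0.0082, COL17A1 at -0.0054 and -0.0053, MCM4 at -0.0103 and -0.0106, KMT2D at -0.0042 and -0.0044 and RBBP7 at -0.0301 and -0.0304. TNC was at 0 with upper-quartile factors. Depth limits the folds of genes scarce in full medium: at 0 counts they are lower bounds, and at 1 to 3 counts ratios with wide counting intervals.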
